A study of Mus musculus with 147 samples.

Results

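Germ cells of mouse testes at postnatal day (PND) 12 and PND14 were compared with germ cells at PND7, over ages at which the first wave of spermatogenesis passes from spermatogonia into meiosis. Cells were taken as germ cells when they held more than 2000 detected genes, between 10000 and 1000000 unique molecular identifiers (UMIs, molecular tags that count transcripts), at least 150 counts per 1000000 UMIs of the cell (CPM) of the germ cell gene Ddx4, and under 100 CPM each of Sox9, a Sertoli cell gene, and Nr2f2, an interstitial cell gene. This gave 1239 germ cells, 307 at PND7 and 932 at PND12 and PND14, of 1556 cells of these time-points past the filter and of 13032 cells in the whole series. Of the remainder, 257 cells fell short of the Ddx4 limit and 60 were left out by the Sox9 or Nr2f2 limit alone. The cells nearest the limit measured 150.81, 154.17 and 158.05 CPM of Ddx4 just inside and 149.54, 148.67 and 147.07 CPM just outside.

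The series followed male germ cells of the mouse from the embryo to the adult by a modified STRT-seq, a single-cell RNA-seq that tags transcripts at their 3′ ends. The pups of all groups used here were wild-type offspring of C57BL/6 females and BVSC males, which carry the fluorescent reporters Prdm1-mVenus and Dppa3-ECFP, and none was treated. Testes were digested with trypsin and cells with the look of germ cells were picked by hand. The study's methods also describe sorting by a Hoechst stain to tell cell ploidy apart, without naming the ages. The share of germ cells among the picked cells therefore carries the picking, and any sorting, as well as the testis. The cell names also hold a DNA content label, 2N in all PND7 libraries, none at PND12, and 2N, 4N or none at PND14. In the pools as summed, age and that label cannot be told apart in the comparisons with PND7. Both PND14 replicates hold some cells labelled 2N, as PND7 does, and some of their levels are given below with no test. Each time-point had 2 biological replicates, each the testis of 1 mouse, and the UMIs of the germ cells of a replicate were summed into 1 pool.

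Postnatal spermatogonia include self-renewing cells, which depend on GDNF signalling and on factors such as ZBTB16. They also include differentiating cells, which respond to retinoic acid and to KIT. Retinoic acid also switches on STRA8, which together with MEIOSIN drives the entry into meiosis. In the prophase that follows, chromosomes build an axis of cohesins and SYCP proteins, SPO11 cuts the DNA, recombination proteins repair the breaks, telomeres attach to the nuclear envelope, and the sex chromosomes fall silent.

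The 6 pools held 151 and 156 germ cells at PND7, 54 and 182 at PND12, and 336 and 360 at PND14, in the order replicate 1 and replicate 2 that is kept throughout. Summed depth lay between 16152572 and 103820749 UMIs per pool, lowest in PND12 replicate 1, and the median depth per cell between 226114 and 372903 UMIs. The cells came from 17 libraries that share the same 96 cell barcodes by design, so a barcode names a cell only within its library.

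Ddx4, which chose the cells, measured 388 and 415 CPM at PND7, 373 and 467 CPM at PND12, and 368 and 510.0 CPM at PND14, and is given with no test. The germ cell marker Dazl, which was not used for the choice, measured 637 and 714 CPM at PND7, 691 and 552 CPM at PND12, and 742 and 768 CPM at PND14. Dazl levels of the PND7 pools lay within the range of the later pools (log2 fold change 0.07 ± 0.16 SE, edgeR adjusted p = 0.845), so by this marker the cells of all 6 pools carried germ cell transcripts.

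Sertoli cell transcripts were present in these germ cell pools and differed between libraries. The 20 Sertoli cell markers together measured 888 and 949 CPM at PND7, 1670.0 and 496 CPM at PND12, and 1174 and 409 CPM at PND14, and no marker was at 0 in all pools. Clu, a secreted chaperone, and Defb19, a defensin, are both abundant in Sertoli cells. Their summed level in the germ cells was between 529 and 853 CPM in 5 of the 13 later libraries, which, numbered in the order of the series, were the single library of PND12 replicate 1, the library numbered 1 of PND12 replicate 2, and the libraries numbered 1 to 3 of PND14 replicate 1. In the other 8 later libraries it was between 40.5 and 127.4 CPM, and in the 4 PND7 libraries between 70.8 and 379 CPM. Germ cells made up 50.5% to 63.5% of the filtered cells in the 5 libraries with the high level and 88.3% to 100% in the other 8.

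These libraries also differed in the transcripts of meiotic prophase. Spo11, the enzyme that cuts DNA to start recombination, measured 2.06 to 18.5 CPM in the 5 later libraries high in Clu and Defb19, and 50.5 to 141.6 CPM in the other 8. Upp1, a uridine phosphorylase of spermatogonia, went the other way, with 106.5 to 192 CPM against 20.2 to 66.9 CPM. In the 4 PND7 libraries Spo11 was between 2.98 and 6.603 CPM and Upp1 between 104.6 and 188 CPM, so by these genes the 5 libraries lay nearer to PND7 than the other 8 did. Prss50, a testis protease, did not separate them in this way. The library of PND12 replicate 1 measured 267 CPM, and libraries 1 and 2 of PND14 replicate 1 measured 140.3 and 151.8 CPM. These lay within the 132.1 to 476 CPM of the other 8. Library 1 of PND12 replicate 2 and library 3 of PND14 replicate 1 measured 20.2 and 46.99 CPM. The split also ran between libraries of 1 mouse, in PND12 replicate 2 and in PND14 replicate 1. In PND14 replicate 1, libraries 1 to 3 were labelled 2N and libraries 4 and 5 were labelled 4N. Whether the Sertoli RNA, the DNA content, the picking of the cells or the stage of the animals set these levels was not tested.

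**Figure D1:**
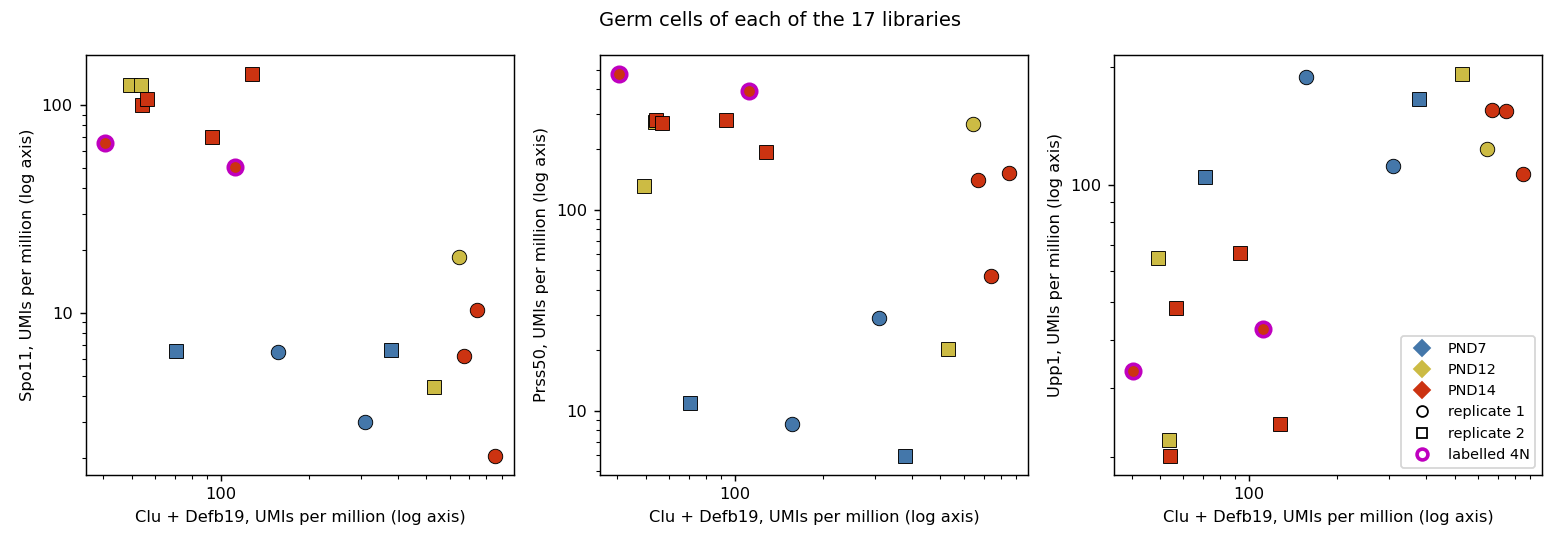
Level of Spo11, Prss50 and Upp1 (y axis, CPM, log axis) against the summed level of the Sertoli cell genes Clu and Defb19 (x axis, CPM, log axis) in the germ cells of each of the 17 libraries, 1 point a library. The 5 later libraries at 529 to 853 CPM of Clu and Defb19 sit at 18.5 CPM of Spo11 or less, and the other 8 later libraries at 50.5 CPM or more.

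The pools fell in the same way. Over the genes, on the log2(CPM + 1) scale, the PND7 pools correlated with each other at 0.991, and PND12 replicate 2 with PND14 replicate 2 at 0.978. PND12 replicate 1 was closer to the PND7 pools, at 0.958 and 0.960, than to PND12 replicate 2, at 0.887. PND14 replicate 1 stood between, at 0.966 and 0.968 with the PND7 pools and 0.946 with PND14 replicate 2. The replicates of a later time-point thus differed from each other by more than the PND7 replicates did, and the error of each comparison below carries that spread. These correlations are over genes, which are not independent replicates.

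**Figure D2:**
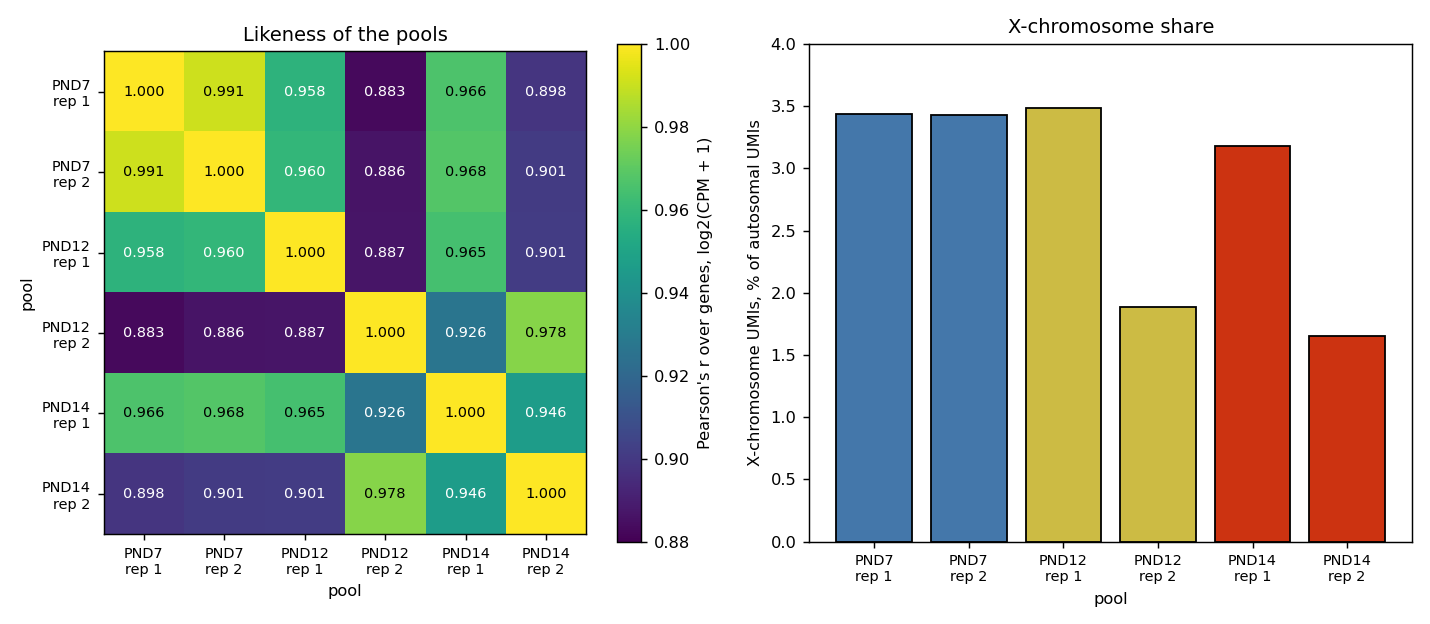
Left, Pearson's r between pools over genes on the log2(CPM + 1) scale, 1 row and column a pool. Right, UMIs of X-chromosome genes as a percentage of autosomal UMIs in each pool, with PND12 replicate 2 at 1.89% and PND14 replicate 2 at 1.65% against 3.18% to 3.48% in the other 4 pools.

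The question was which genes differed between the germ cells of the later time-points and those of PND7, over pools and not over cells. With edgeR's quasi-likelihood test on 20533 genes, 0 genes (0%) passed an adjusted p of 0.05 in the mean of PND12 and PND14 against PND7, and the smallest adjusted p was 0.169. At an unadjusted p under 0.05 there were 3144 genes, and DESeq2 on the same sums called 1695 genes higher (8.26%) and 726 lower (3.54%). Each later time-point alone against the shared PND7 pools also gave 0 genes by edgeR, with 2469 genes at PND12 and 2699 at PND14 under an unadjusted 0.05 and smallest adjusted p of 0.257 and 0.209, while DESeq2 called 1521 and 1757 genes. PND14 against PND12 gave 0 genes by edgeR, 494 under an unadjusted 0.05, and 34 by DESeq2. Limma on log2 CPM called 4 genes in the first comparison, Prss50, Rad51ap2, H2-K1 and H2-Ab1, all higher at the later time-points, and none in the others.

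The choice of tool therefore decides the calls here, and the text below leads with the level in every pool. In all, 2971 genes (14.5%) were higher and 3535 (17.2%) lower in each of the 4 later pools than in both PND7 pools. An exact permutation of 2 against 4 pools cannot give a one-sided p below 0.0667, so such a pattern has no test of its own. The median log2 fold change over all genes tested was 0.05. In sums over cells, fewer cells with a transcript and less transcript per cell cannot be told apart.

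A further fit, chosen after seeing the data, left out every germ cell with a summed Clu and Defb19 level of 100 CPM or more. It kept 45 and 69 cells at PND7, more than 100 each in PND12 replicate 2 and PND14 replicate 1, and 274 in PND14 replicate 2, while no cell of PND12 replicate 1 remained. With these 5 pools edgeR called 1911 of 21060 genes higher (9.07%) and 987 lower (4.69%). That fit took out every cell of the 5 later libraries and of 1 PND7 library, so it compares a narrower set of cells, and its PND12 value comes from 1 mouse, assumed to vary like the other groups. Leaving out the libraries themselves instead, in the pools that have others, gave 0 genes, with 3492 under an unadjusted 0.05 and a smallest adjusted p of 0.0561. In both fits PND14 replicate 1 kept only cells labelled 4N, while all PND7 cells were labelled 2N. The cells left out include all those of the later libraries nearest to PND7 in Spo11 and Upp1. How far that choice set the number of calls was not tested, and the fit is not used for single genes or lists below.

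Of the 26 genes of the list for undifferentiated spermatogonia, 0 passed the test, 0 were higher and 11 lower in every later pool, against 14.5% and 17.2% of all genes tested, and the list's median log2 fold change was -0.85. The study itself uses Etv5 and Gfra1 as markers of that stage, and Nanos3, Lin28a and Upp1 as markers of the differentiating stage after it, so the list spans both. Nanos3, an RNA-binding protein of early germ cells and spermatogonia, measured 163 and 145.4 CPM at PND7, 113.9 and 63.6 CPM at PND12, and 69.5 and 27.5 CPM at PND14. Utf1, a chromatin factor of stem and progenitor spermatogonia, measured 67.9 and 58.8 CPM at PND7, 38.5 and 36.4 CPM at PND12, and 29.7 and 13.1 CPM at PND14. In both genes PND12 replicate 1 was the later pool nearest to PND7 and PND14 replicate 2 was the lowest. Neither passed the test (Nanos3 log2 fold change -1.22 ± 0.35 SE, edgeR adjusted p = 0.283, Utf1 log2 fold change -1.14 ± 0.31 SE, edgeR adjusted p = 0.283).

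PND14 replicate 2 was also the lowest pool of 3 further members. The GDNF target Etv5 measured 37.5 and 33.6 CPM at PND7, 22.7 and 8.30 CPM at PND12, and 14.3 and 6.25 CPM at PND14 (log2 fold change -1.48 ± 0.47 SE, edgeR adjusted p = 0.296). Egr4, an immediate-early transcription factor, measured 137.4 and 92.5 CPM at PND7, 58.3 and 51.5 CPM at PND12, and 61.4 and 37.6 CPM at PND14 (log2 fold change -1.10 ± 0.24 SE, edgeR adjusted p = 0.282). Upp1 measured 158 and 135.4 CPM at PND7, 123.3 and 74.7 CPM at PND12, and 86.1 and 39.95 CPM at PND14 (log2 fold change -0.87 ± 0.30 SE, edgeR adjusted p = 0.305). The last of these is the narrowest case, since PND12 replicate 1 reached 123.3 CPM against 135.4 CPM in the lower PND7 pool.

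Genes of the GDNF receptor did not separate the pools. Gfra1, the receptor's binding subunit, measured 14.8 and 9.42 CPM at PND7, 13.3 and 6.07 CPM at PND12, and 9.05 and 2.46 CPM at PND14. Ret, its kinase, measured 50.6 and 36.9 CPM at PND7, 50.5 and 12.4 CPM at PND12, and 26.1 and 11.9 CPM at PND14. In both genes PND12 replicate 1 lay among the PND7 pools. Lin28a, an RNA-binding protein of progenitors, measured 66.99 and 57.4 CPM at PND7, 65.6 and 25.97 CPM at PND12, and 40.6 and 15.2 CPM at PND14 (log2 fold change -0.78 ± 0.46 SE, edgeR adjusted p = 0.416). Id4, an inhibitor of differentiation, was the one member with a log2 fold change above 1, at 33.5 and 25.3 CPM at PND7, 18.4 and 74.7 CPM at PND12, and 40.3 and 114.3 CPM at PND14, but its pools overlapped and its difference was a log2 fold change 1.13 ± 0.73 SE, edgeR adjusted p = 0.45. Epcam, an adhesion molecule and the member with most UMIs, measured 182 and 198 CPM at PND7, 174 and 108.97 CPM at PND12, and 236 and 124.95 CPM at PND14, with PND14 replicate 1 above PND7. DESeq2 called 6 of the 26 genes lower and 0 higher, against 3.54% of all genes.

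Of the 18 genes of spermatogonial differentiation, 0 passed the test. In every later pool 4 were higher and 9 lower, against 14.5% and 17.2% of all genes, with a median log2 fold change of -0.39. Among the lower were transcription factors that prepare differentiation and hold back meiosis. Sohlh1 measured 314 and 321 CPM at PND7, 241 and 154 CPM at PND12, and 191 and 117.7 CPM at PND14 (log2 fold change -0.83 ± 0.21 SE, edgeR adjusted p = 0.282). Dmrt1 measured 327 and 308 CPM at PND7, 250.1 and 172 CPM at PND12, and 256 and 157 CPM at PND14 (log2 fold change -0.57 ± 0.20 SE, edgeR adjusted p = 0.305). Each stood highest in the 2 PND7 pools and lowest in PND14 replicate 2.

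The cyclins D showed the same direction for Ccnd2, at 282 and 313 CPM at PND7, 268 and 157 CPM at PND12, and 139.8 and 81.3 CPM at PND14 (log2 fold change -0.93 ± 0.25 SE, edgeR adjusted p = 0.282), while the pools of Ccnd1 overlapped. Kit, the receptor that marks differentiating spermatogonia, did not separate the time-points, at 63.3 and 67.1 CPM at PND7, 55.1 and 58.6 CPM at PND12, and 74.2 and 44.1 CPM at PND14 (log2 fold change -0.14 ± 0.23 SE, edgeR adjusted p = 0.787). Dazl, the member with most UMIs, was described above.

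The 4 members higher in every later pool were Prss50, Tex101, Dmrtb1 and Esx1. Prss50 measured 16.6 and 8.38 CPM at PND7, 267 and 159.7 CPM at PND12, and 278 and 256 CPM at PND14, a log2 fold change 4.31 ± 0.40 SE, edgeR adjusted p = 0.169. No gene had a smaller adjusted p in edgeR with all cells, and 5 others had the same. Tex101, a surface glycoprotein of germ cells, measured 349 and 364 CPM at PND7, 574 and 731 CPM at PND12, and 549 and 966 CPM at PND14 (log2 fold change 1.05 ± 0.32 SE, edgeR adjusted p = 0.289). Their later pools stood well clear of PND7. Dmrtb1, a factor at the switch from mitosis to meiosis, measured 34.5 and 27.8 CPM at PND7, 37.3 and 183 CPM at PND12, and 104.03 and 122.6 CPM at PND14, so PND12 replicate 1 was barely above PND7 (log2 fold change 1.91 ± 0.66 SE, edgeR adjusted p = 0.305). Esx1, a homeobox gene of the X chromosome, measured 30.6 and 18.2 CPM at PND7, 118.9 and 51.8 CPM at PND12, and 159 and 87.2 CPM at PND14 (log2 fold change 2.10 ± 0.45 SE, edgeR adjusted p = 0.282) and was higher in replicate 1 than in replicate 2 at both later time-points.

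Of the 20 genes of the retinoic acid pathway, 3 were higher and 4 lower in every later pool, near the 14.5% and 17.2% of all genes tested, and the median log2 fold change was -0.41. Aldh1a2, an enzyme that makes retinoic acid and is known from spermatocytes, measured 29.9 and 32.1 CPM at PND7, 61.4 and 129.8 CPM at PND12, and 54.5 and 84.99 CPM at PND14 (log2 fold change 1.47 ± 0.44 SE, edgeR adjusted p = 0.283). Its relative Aldh1a3 measured 105.7 and 122.4 CPM at PND7, 60.4 and 22.7 CPM at PND12, and 61.8 and 19.6 CPM at PND14 (log2 fold change -1.47 ± 0.50 SE, edgeR adjusted p = 0.303). The 2 enzymes thus stood on opposite sides of PND7 in every later pool, neither past the test.

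Rdh11, a retinol dehydrogenase, was higher in PND12 replicate 2 and PND14 replicate 2 than in the other later pools, with 18.97 and 13.5 CPM at PND7, 31.9 and 128.5 CPM at PND12, and 32.2 and 100.3 CPM at PND14. Lrat, which stores retinol as esters, measured 1.22 and 0.823 CPM at PND7, 0.619 and 25.2 CPM at PND12, and 9.97 and 23.5 CPM at PND14, and was near the PND7 level in PND12 replicate 1. Crabp1, a binding protein of retinoic acid, measured 373 and 372 CPM at PND7, 317 and 231 CPM at PND12, and 354 and 199 CPM at PND14 (log2 fold change -0.41 ± 0.21 SE, edgeR adjusted p = 0.377). The receptors Rara and Rarg overlapped between the time-points, with log2 fold changes of -0.41 ± 0.41 and -0.41 ± 0.36 (SE).

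Among the regulators of meiotic entry, the gene best known for it did not separate the time-points. Stra8 measured 348 and 416 CPM at PND7, 515 and 316 CPM at PND12, and 400.2 and 216 CPM at PND14, so the PND7 pools lay inside the range of the later pools. Its log2 fold change was -0.07 ± 0.26 (SE, edgeR adjusted p = 0.913), with a sign that turned to 0.10 with PND12 alone against PND7. Gm4969, the gene of MEIOSIN, measured 5.88 and 5.61 CPM at PND7, 17.4 and 5.33 CPM at PND12, and 16.2 and 4.92 CPM at PND14. Here both replicate 1 pools were well above PND7 and both replicate 2 pools just below it (log2 fold change 0.94 ± 0.67 SE, edgeR adjusted p = 0.488).

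Meioc and Ythdc2, whose proteins form an RNA-binding complex that is needed to leave mitosis, were higher in every later pool. Meioc measured 21.2 and 17.1 CPM at PND7, 94.04 and 153 CPM at PND12, and 111.9 and 184 CPM at PND14 (log2 fold change 2.90 ± 0.41 SE, edgeR adjusted p = 0.201). Ythdc2 measured 22.2 and 18.1 CPM at PND7, 51.1 and 48.6 CPM at PND12, and 57.4 and 77.8 CPM at PND14 (log2 fold change 1.59 ± 0.30 SE, edgeR adjusted p = 0.282). Both were clear of PND7 in all 4 pools. Prdm9, which marks the sites of recombination, measured 6.19 and 4.68 CPM at PND7, 72.9 and 29.1 CPM at PND12, and 65.2 and 28.001 CPM at PND14 (log2 fold change 3.18 ± 0.55 SE, edgeR adjusted p = 0.259) and was higher in replicate 1 than in replicate 2 at both later time-points, the reverse of Spo11. Tex19.1, a germ cell protein that acts against retrotransposons, measured 477 and 503 CPM at PND7, 351 and 306 CPM at PND12, and 289 and 245 CPM at PND14 (log2 fold change -0.68 ± 0.12 SE, edgeR adjusted p = 0.27). Over the 14 tested genes of this list 4 were higher and 3 lower in every later pool, against 14.5% and 17.2% of all genes. The list's median log2 fold change was 0.18.

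**Figure D3:**
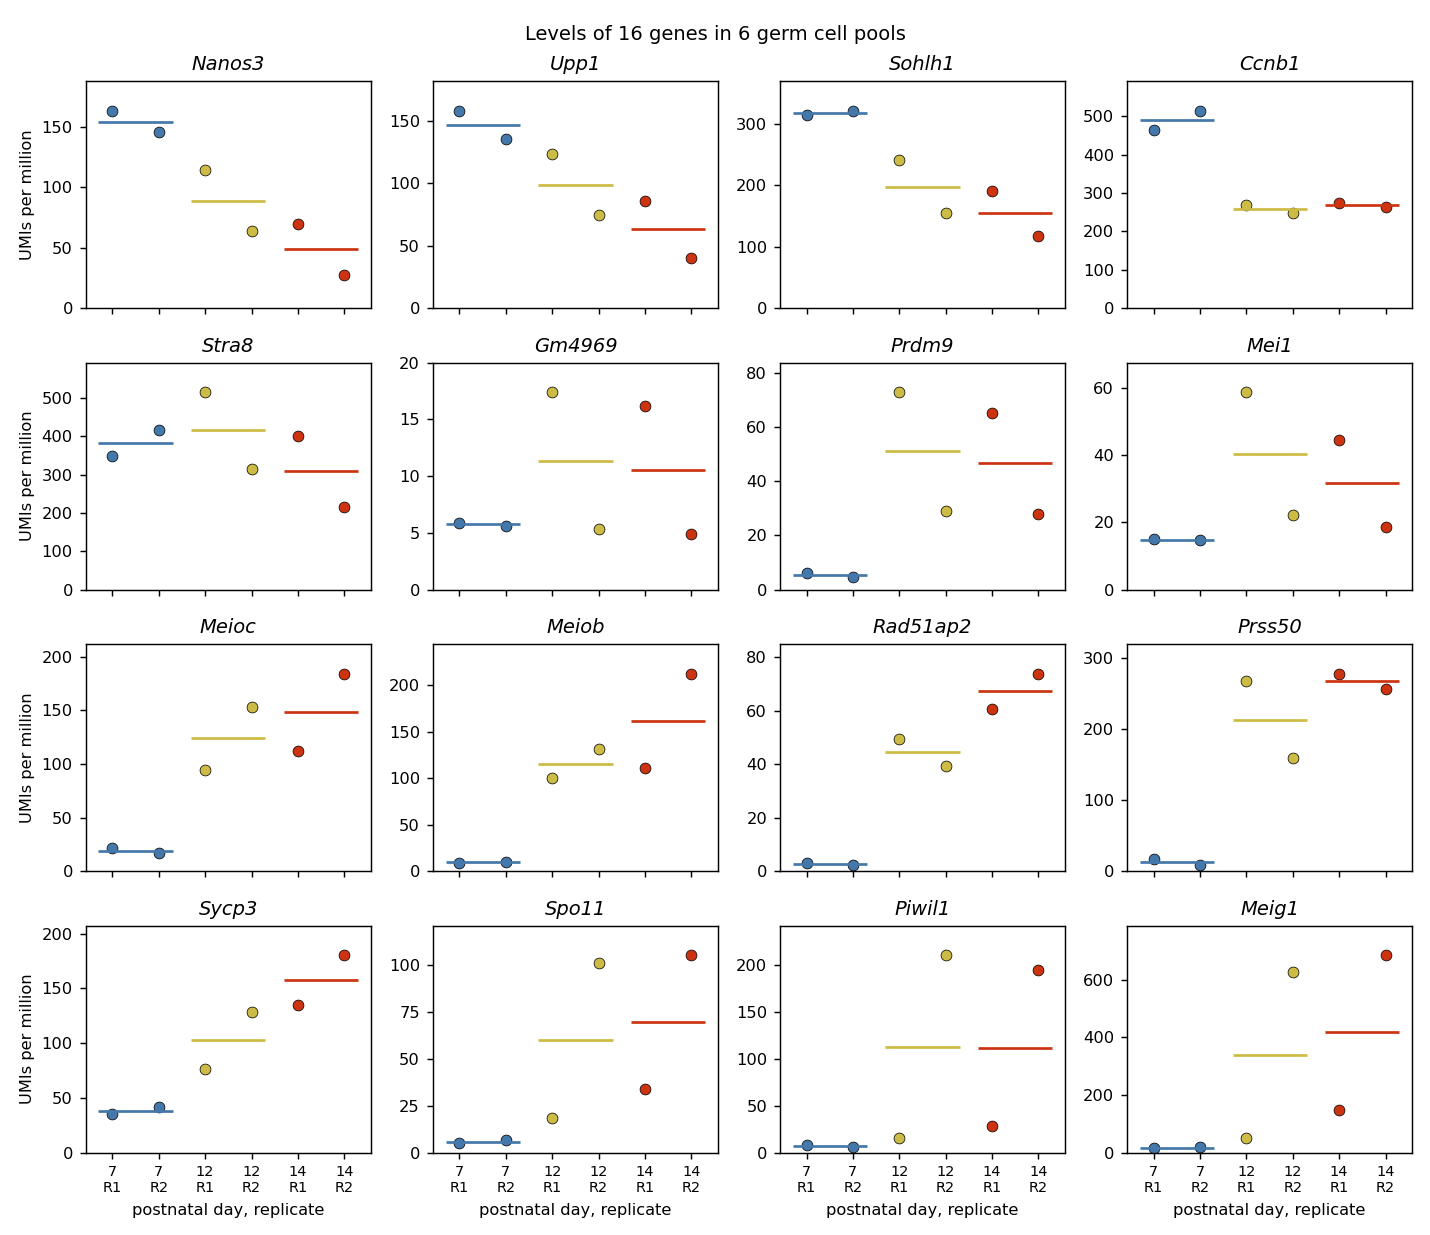
Level (y axis, CPM, linear from 0) of 16 genes in the 6 germ cell pools (x axis, postnatal day and replicate), 1 point a pool, with a line at the mean of each time-point. Nanos3, Upp1, Sohlh1 and Ccnb1 are lower in all later pools, Stra8 and Gm4969 overlap, and Spo11, Piwil1 and Meig1 are highest in replicate 2 of both later time-points.

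Of the 10 genes for the cohesins and axis proteins of meiotic chromosomes, 0 passed the test. In every later pool 7 were higher and 0 lower, against 14.5% and 17.2% of all genes, with a median log2 fold change of 1.16. Sycp3, a core protein of the axis, measured 35.2 and 41.5 CPM at PND7, 76.1 and 128.8 CPM at PND12, and 134.6 and 180.4 CPM at PND14 (log2 fold change 1.79 ± 0.35 SE, edgeR adjusted p = 0.282). Hormad1, which recruits the break machinery to the axis, measured 107.7 and 116.6 CPM at PND7, 293 and 365 CPM at PND12, and 294 and 549.9 CPM at PND14 (log2 fold change 1.80 ± 0.36 SE, edgeR adjusted p = 0.282). Sycp2, the partner of SYCP3, measured 74.9 and 84.2 CPM at PND7, 234 and 302 CPM at PND12, and 206 and 411 CPM at PND14 (log2 fold change 1.93 ± 0.39 SE, edgeR adjusted p = 0.282). In these 3 genes every later pool was above both PND7 pools and PND14 replicate 2 was highest.

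Among the meiotic cohesin subunits the pools were ordered differently. Smc1b, the member with most UMIs, measured 360.1 and 396 CPM at PND7, 527 and 403 CPM at PND12, and 523 and 628 CPM at PND14 (log2 fold change 0.51 ± 0.20 SE, edgeR adjusted p = 0.321). Stag3 measured 100.5 and 100.7 CPM at PND7, 132.8 and 181 CPM at PND12, and 138.2 and 181 CPM at PND14 (log2 fold change 0.72 ± 0.26 SE, edgeR adjusted p = 0.309). Rec8 measured 24.3 and 15.01 CPM at PND7, 35.7 and 11.9 CPM at PND12, and 31.9 and 10.3 CPM at PND14, with PND7 between the replicates of the later days. Meikin, which acts at the centromere in the first meiotic division, measured 0.559 and 1.04 CPM at PND7, 2.60 and 66.2 CPM at PND12, and 16.02 and 58.2 CPM at PND14 and was mostly a signal of the replicate 2 pools. DESeq2 called 5 of the 10 genes higher and 0 lower, against 8.26% and 3.54% of all genes.

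The central region of the synaptonemal complex, which joins paired chromosomes, was already transcribed at PND7. Sycp1, its transverse filament, measured 433 and 496 CPM at PND7, 608 and 569 CPM at PND12, and 682 and 935 CPM at PND14 (log2 fold change 0.63 ± 0.23 SE, edgeR adjusted p = 0.308). Syce2 measured 383 and 395 CPM at PND7, 463 and 358 CPM at PND12, and 454 and 432 CPM at PND14 (log2 fold change 0.18 ± 0.15 SE, edgeR adjusted p = 0.554). Syce3 had the largest difference of the 6 genes, at 115.8 and 100.5 CPM at PND7, 257 and 278 CPM at PND12, and 295 and 389 CPM at PND14 (log2 fold change 1.55 ± 0.23 SE, edgeR adjusted p = 0.225). In this list 4 genes were higher and 0 lower in every later pool, against 14.5% and 17.2% of all genes. The list's median log2 fold change was 0.53, and the pools of Syce2 overlapped.

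**Figure D4:**
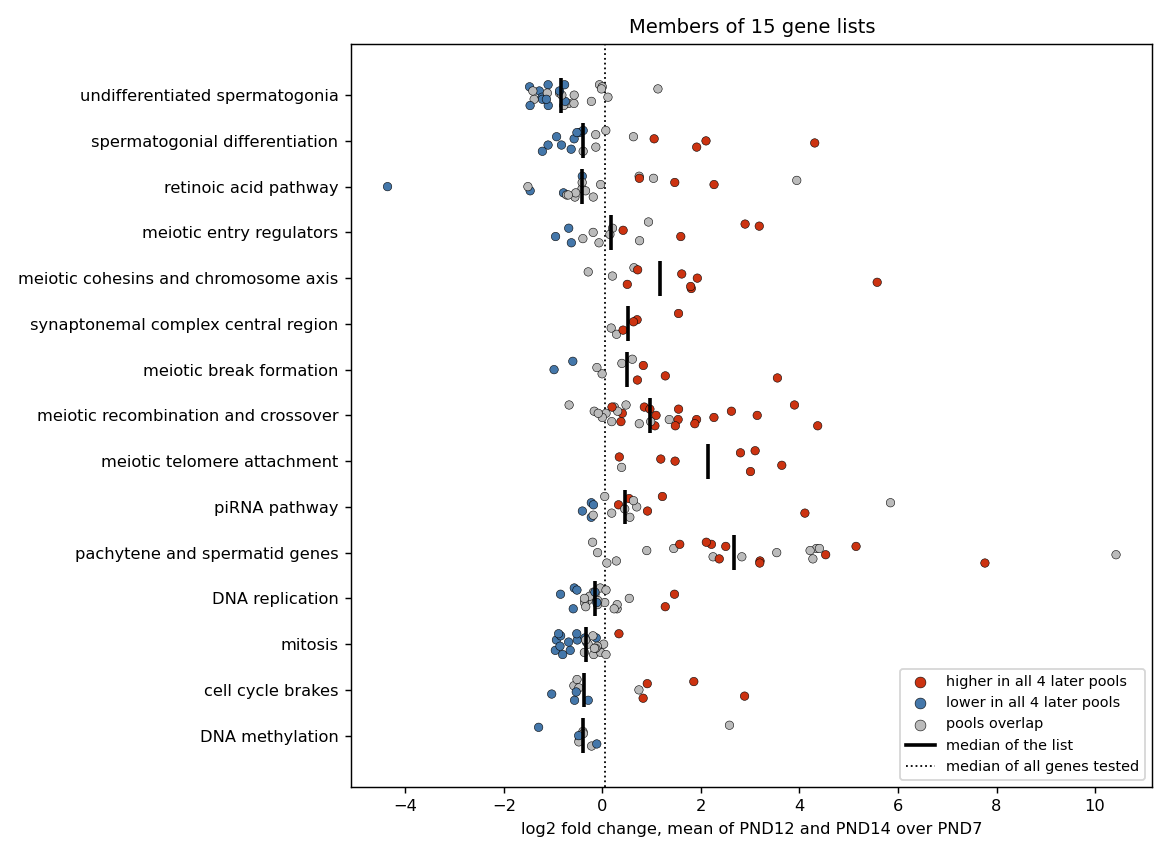
Log2 fold change of each tested member of 15 gene lists (x axis, mean of PND12 and PND14 over PND7), 1 point a gene, coloured by whether all 4 later pools lie above or below both PND7 pools. Thick bars are list medians, from 2.67 for pachytene and spermatid genes and 2.14 for telomere attachment to -0.85 for undifferentiated spermatogonia, and the dotted line is the median of all genes tested, 0.05.

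Of the genes for the formation of meiotic breaks, 4 of 10 were higher and 2 lower in every later pool. The shares over all genes were 14.5% and 17.2%, and the list's median log2 fold change was 0.50. Spo11 measured 5.14 and 6.58 CPM at PND7, 18.5 and 101.2 CPM at PND12, and 33.7 and 105.2 CPM at PND14 (log2 fold change 3.55 ± 0.96 SE, edgeR adjusted p = 0.283). Ankrd31, a scaffold of the break sites, measured 115.5 and 116.3 CPM at PND7, 161 and 189 CPM at PND12, and 174 and 205 CPM at PND14 (log2 fold change 0.71 ± 0.20 SE, edgeR adjusted p = 0.283). Spo11 stood several times higher in the replicate 2 pools than in replicate 1, while the later pools of Ankrd31 were close to each other. Rec114 and Mei4, which form the break machinery itself, were lower in every later pool. Rec114 measured 26.6 and 25.1 CPM at PND7, 15.6 and 8.48 CPM at PND12, and 24.4 and 4.19 CPM at PND14 (log2 fold change -0.98 ± 0.63 SE, edgeR adjusted p = 0.443). Mei4 measured 24.2 and 26.2 CPM at PND7, 24.02 and 11.4 CPM at PND12, and 17.8 and 12.1 CPM at PND14 (log2 fold change -0.60 ± 0.37 SE, edgeR adjusted p = 0.432). PND12 replicate 1 was within 1 CPM of the lower PND7 pool in Mei4, and PND14 replicate 1 in Rec114. Hells and Zcwpw1, the members with most UMIs, a chromatin remodeller and a reader of PRDM9 marks, overlapped, with log2 fold changes of -0.11 ± 0.22 and 0.40 ± 0.30 (SE).

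Recombination and crossover genes, the longest list, had no member lower in every later pool. Of 29 genes, 17 were higher (15 after TMM scaling), and the median log2 fold change was 0.96. Over all genes 14.5% were higher and 17.2% lower. Rad51ap2, a gene of meiotic recombination, had the largest difference, at 3.17 and 2.34 CPM at PND7, 49.5 and 39.5 CPM at PND12, and 60.6 and 73.9 CPM at PND14 (log2 fold change 4.37 ± 0.36 SE, edgeR adjusted p = 0.169). Meiob, a single-strand DNA-binding protein of meiosis, measured 9.18 and 10.1 CPM at PND7, 100.3 and 131.1 CPM at PND12, and 111.1 and 212 CPM at PND14 (log2 fold change 3.90 ± 0.44 SE, edgeR adjusted p = 0.171). The lowest later pool of each was many times the higher PND7 pool.

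Dmc1, the meiotic recombinase, differed less, at 43.3 and 47.5 CPM at PND7, 110.5 and 62.03 CPM at PND12, and 113.4 and 91.8 CPM at PND14 (log2 fold change 1.09 ± 0.27 SE, edgeR adjusted p = 0.282). All later pools of Dmc1 were above PND7. Msh5, which stabilises crossover intermediates, measured 12.2 and 14.03 CPM at PND7, 37.8 and 45.01 CPM at PND12, and 48.6 and 55.2 CPM at PND14 (log2 fold change 1.88 ± 0.30 SE, edgeR adjusted p = 0.23). H2afx, the histone that marks DNA breaks, measured 172 and 159 CPM at PND7, 181 and 347 CPM at PND12, and 237 and 469 CPM at PND14 (log2 fold change 0.96 ± 0.43 SE, edgeR adjusted p = 0.347), with PND12 replicate 1 close to PND7. Zswim7, second to H2afx in UMIs, was higher in every later pool by a log2 fold change of no more than 0.20 ± 0.16 (SE). DESeq2 called 10 of the 29 genes higher and 0 lower, against 8.26% and 3.54% of all genes.

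Genes that attach telomeres to the nuclear envelope had the highest median of the lists of early meiosis, 2.14. In every later pool 7 of 8 genes were higher, against 14.5% of all genes. Terb1, a part of the attachment complex, measured 8.02 and 7.73 CPM at PND7, 48.2 and 63.8 CPM at PND12, and 47.3 and 52.3 CPM at PND14 (log2 fold change 2.80 ± 0.31 SE, edgeR adjusted p = 0.171). Majin, its anchor in the membrane, measured 6.19 and 5.52 CPM at PND7, 53.2 and 100.6 CPM at PND12, and 37.8 and 86.1 CPM at PND14 (log2 fold change 3.64 ± 0.58 SE, edgeR adjusted p = 0.23). Both were far above PND7 in all 4 later pools. Spdya, an activator of CDK2 at telomeres, measured 17.8 and 19.6 CPM at PND7, 71.2 and 207 CPM at PND12, and 80.5 and 244 CPM at PND14 (log2 fold change 3.10 ± 0.73 SE, edgeR adjusted p = 0.282). Cdk2 itself measured 113.9 and 112.4 CPM at PND7, 121.9 and 149.6 CPM at PND12, and 140.9 and 141.3 CPM at PND14 (log2 fold change 0.34 ± 0.19 SE, edgeR adjusted p = 0.396). Sun1, which spans the envelope, was higher in all later pools and Sun2, its paralog, was not. DESeq2 called 6 of the 8 genes higher, against 8.26% of all genes.

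Promoters of genes of these lists are printed because many members were higher in the same pools and such genes are known targets of common regulators. Of the 77 tested members of the 6 lists from meiotic entry to telomere attachment, 60 had an entry among the 27025 genes of the RefSeq promoter table (build GRCm38.p6). The letters of 3 motifs were searched on both strands in the 250 bases before each annotated start. A gene was counted when any of its starts held the motif. The motifs were CNCCTCAG, known from STRA8 and MEIOSIN binding, CACGTG, the E-box read by MAX and its partners, and GGCGGGAA, an E2F-like element. Over all 27025 genes the shares were 7.39%, 6.86% and 2.13%. Among the 32 genes with a promoter entry that were higher in every later pool, 5 (15.6%) held CNCCTCAG, 5 (15.6%) CACGTG and 6 (18.8%) GGCGGGAA. Among the other 28 the numbers were 2, 4 and 2. These shares are a description of letters, on few genes, with no test.

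The 6 promoters below belong to genes described above or, for Tex12, to another gene of the synaptonemal complex centre (221 and 216 CPM at PND7, 249.8 and 259 CPM at PND12, and 239 and 371 CPM at PND14), and each holds at least 1 of the motifs. They are all the promoters of members higher in every later pool with more than 1 kind of motif, and those of Sycp3 and Rad51ap2. Each is written 5′ to 3′ along the gene and ends at the base before the start, with the motifs in capitals. Hormad1 and Prdm9 have 2 annotated starts each, and the start with the most kinds of motif was printed. They lie at chr3:95559427-95559676 on the plus strand (Hormad1), chr17:35046623-35046872 on the minus strand (Msh5), chr17:15564355-15564604 on the minus strand (Prdm9), chr12:11455805-11456054 on the plus strand (Rad51ap2), chr10:88459337-88459586 on the plus strand (Sycp3) and chr9:50561269-50561518 on the minus strand (Tex12).
Hormad1: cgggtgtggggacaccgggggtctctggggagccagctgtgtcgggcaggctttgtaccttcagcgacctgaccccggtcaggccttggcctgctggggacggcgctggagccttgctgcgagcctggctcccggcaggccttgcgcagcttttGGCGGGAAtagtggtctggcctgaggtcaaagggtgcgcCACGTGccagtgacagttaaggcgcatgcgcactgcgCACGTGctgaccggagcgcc
Msh5: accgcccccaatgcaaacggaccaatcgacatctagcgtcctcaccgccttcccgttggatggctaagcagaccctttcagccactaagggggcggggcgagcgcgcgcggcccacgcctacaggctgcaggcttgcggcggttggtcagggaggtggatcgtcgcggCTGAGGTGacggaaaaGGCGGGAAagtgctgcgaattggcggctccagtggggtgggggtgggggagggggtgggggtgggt
Prdm9: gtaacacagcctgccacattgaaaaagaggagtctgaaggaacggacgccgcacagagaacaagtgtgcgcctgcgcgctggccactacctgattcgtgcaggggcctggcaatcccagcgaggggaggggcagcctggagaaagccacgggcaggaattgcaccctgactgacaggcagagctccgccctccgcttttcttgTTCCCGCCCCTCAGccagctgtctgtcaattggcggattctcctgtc
Rad51ap2: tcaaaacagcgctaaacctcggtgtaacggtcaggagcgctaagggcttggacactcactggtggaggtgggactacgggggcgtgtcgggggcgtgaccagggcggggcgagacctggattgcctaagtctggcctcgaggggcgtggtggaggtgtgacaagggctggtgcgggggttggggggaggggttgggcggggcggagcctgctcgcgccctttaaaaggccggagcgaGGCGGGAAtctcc
Sycp3: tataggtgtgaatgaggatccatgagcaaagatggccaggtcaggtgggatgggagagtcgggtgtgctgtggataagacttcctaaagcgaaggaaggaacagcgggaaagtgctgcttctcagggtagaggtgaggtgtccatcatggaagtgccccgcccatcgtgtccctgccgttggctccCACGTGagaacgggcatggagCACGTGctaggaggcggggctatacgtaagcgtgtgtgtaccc
Tex12: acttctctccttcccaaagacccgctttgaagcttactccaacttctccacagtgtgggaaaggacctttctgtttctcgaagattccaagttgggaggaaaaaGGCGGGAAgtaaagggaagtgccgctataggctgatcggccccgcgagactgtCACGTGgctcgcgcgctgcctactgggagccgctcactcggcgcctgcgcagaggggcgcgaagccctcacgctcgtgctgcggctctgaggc

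Sycp3 holds 2 copies of CACGTG, 64 to 59 and 43 to 38 bases before the start, and Hormad1 also 2, at 57 to 52 and 20 to 15. Prdm9 holds CNCCTCAG at 41 to 34, overlapping GGCGGGAA in reverse complement at 47 to 40. In Rad51ap2 GGCGGGAA stands 13 to 6 bases before the start. Msh5 holds both CNCCTCAG in reverse complement, at 82 to 75, and GGCGGGAA at 66 to 59. Tex12 holds CACGTG at 93 to 88 and 1 copy of GGCGGGAA farther from the start, and Hormad1 GGCGGGAA at 96 to 89. The promoter of Meioc held none of the 3, which says only that these letters are not in the window.

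The piRNA pathway silences transposons through PIWI proteins and Tudor-domain scaffolds. Of 17 genes in its list, 5 were higher and 4 lower in every later pool (5 and 1 after TMM scaling). The shares over all genes were 14.5% and 17.2%, and the list's median log2 fold change was 0.45. Piwil1, the PIWI protein of pachytene cells, measured 7.91 and 6.17 CPM at PND7, 15.4 and 211 CPM at PND12, and 28.6 and 194 CPM at PND14 (log2 fold change 4.11 ± 1.41 SE, edgeR adjusted p = 0.305). Its replicate 2 pools stood many times above PND7 and its replicate 1 pools much closer to it. Mael, a piRNA protein of the nuage and the member with most UMIs, measured 508 and 543 CPM at PND7, 456 and 561 CPM at PND12, and 463 and 603 CPM at PND14 (log2 fold change 0.05 ± 0.22 SE, edgeR adjusted p = 0.928). Mov10l1, a helicase that feeds piRNA precursors to the pathway, measured 300.2 and 303 CPM at PND7, 342 and 361 CPM at PND12, and 341 and 411 CPM at PND14 (log2 fold change 0.33 ± 0.18 SE, edgeR adjusted p = 0.405).

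Genes known from pachytene spermatocytes and spermatids had the highest median of all lists, 2.67. In every later pool 10 of 24 genes were higher and 0 lower, against 14.5% and 17.2% of all genes. Meig1, a spermiogenesis protein, measured 14.7 and 20.2 CPM at PND7, 51.1 and 627 CPM at PND12, and 149 and 685 CPM at PND14 (log2 fold change 4.53 ± 1.32 SE, edgeR adjusted p = 0.283). Tcte3, a dynein light chain, measured 108.97 and 106.8 CPM at PND7, 154 and 918 CPM at PND12, and 298 and 924 CPM at PND14 (log2 fold change 2.50 ± 0.89 SE, edgeR adjusted p = 0.308). Ldhc, the germ cell lactate dehydrogenase, measured 7.001 and 11.8 CPM at PND7, 28.5 and 641 CPM at PND12, and 59.7 and 511 CPM at PND14 (log2 fold change 5.15 ± 1.69 SE, edgeR adjusted p = 0.296). For each the replicate 2 pools stood several times above the replicate 1 pools of the same day, and the standard errors were large.

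Genes of the late steps were detected mainly in the replicate 2 pools of the later days. Prm1, a protamine, measured 2.17 and 0.173 CPM at PND7, 0.248 and 40.4 CPM at PND12, and 0.395 and 37.7 CPM at PND14. Tnp2, a transition protein, measured 1.55 and 0.368 CPM at PND7, 0 and 38.2 CPM at PND12, and 0.039 and 35.5 CPM at PND14. Both were under 3 CPM in the PND7 and replicate 1 pools and between 35.5 and 40.4 CPM in the replicate 2 pools. The study places its round spermatid cluster at ages later than those used here. Whether these UMIs came from the picked cells themselves was not tested. The list's median was 0.83 without PND12 replicate 2 and 1.32 without PND14 replicate 2. DESeq2 called 9 of the 24 genes higher and 0 lower, against 8.26% and 3.54% of all genes.

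Of 26 mitotic genes, 0 passed the test, 1 was higher and 14 lower in every later pool (1 and 11 after TMM scaling). The shares over all genes were 14.5% and 17.2%, and the list's median log2 fold change was -0.33. Ccnb1, the cyclin of mitotic entry, measured 466 and 515 CPM at PND7, 268 and 247 CPM at PND12, and 275 and 265 CPM at PND14 (log2 fold change -0.85 ± 0.13 SE, edgeR adjusted p = 0.23). Ube2c, a ubiquitin enzyme of mitotic exit, measured 363 and 400.5 CPM at PND7, 223 and 157 CPM at PND12, and 239 and 184 CPM at PND14 (log2 fold change -0.89 ± 0.17 SE, edgeR adjusted p = 0.282). The 4 later pools of Ccnb1 lay within 247 to 275 CPM, so its replicates differed little. Mki67, the proliferation marker, measured 120.01 and 141.2 CPM at PND7, 96.3 and 81.2 CPM at PND12, and 122.6 and 96.6 CPM at PND14 (log2 fold change -0.37 ± 0.17 SE, edgeR adjusted p = 0.36). Cenpf, a kinetochore protein, and Cdca8, a chromosomal passenger protein, the members with most UMIs, differed by log2 fold changes of -0.13 ± 0.15 and -0.13 ± 0.17 (SE).

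DNA replication genes differed less, with 2 higher and 6 lower of 25, against 14.5% and 17.2% of all genes, and a median of -0.15. Ccne2, a cyclin E, was higher in every later pool, at 35.6 and 30.9 CPM at PND7, 86.4 and 67.2 CPM at PND12, and 120.1 and 86.98 CPM at PND14 (log2 fold change 1.46 ± 0.22 SE, edgeR adjusted p = 0.225). Gins2, a part of the replicative helicase, was the other, at 23.6 and 23.7 CPM at PND7, 57.8 and 56.8 CPM at PND12, and 61.1 and 46.98 CPM at PND14 (log2 fold change 1.28 ± 0.23 SE, edgeR adjusted p = 0.266). Both were about even over the later pools. Rpa2, a single-strand binding protein, measured 398 and 399.5 CPM at PND7, 364 and 319 CPM at PND12, and 376 and 332 CPM at PND14, lower in every later pool. Lig1, the replicative ligase, measured 391 and 406 CPM at PND7, 441 and 254 CPM at PND12, and 413 and 266 CPM at PND14, with PND7 between the replicates.

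Among the brakes of the cell cycle 4 of 12 genes were higher and 4 lower, against 14.5% and 17.2% of all genes. The list's median was -0.38. Cdkn2c, an INK4 inhibitor of the G1 kinases, measured 4.97 and 4.50 CPM at PND7, 20.3 and 48.9 CPM at PND12, and 18.9 and 44.1 CPM at PND14 (log2 fold change 2.89 ± 0.64 SE, edgeR adjusted p = 0.282). Cdkn2d, its relative, measured 36.7 and 31.7 CPM at PND7, 68.5 and 152 CPM at PND12, and 90.2 and 159 CPM at PND14 (log2 fold change 1.86 ± 0.48 SE, edgeR adjusted p = 0.282). Both inhibitors were higher in every later pool. Trp53, the p53 gene, was lower, at 161 and 166 CPM at PND7, 136.1 and 96.8 CPM at PND12, and 125.8 and 83.4 CPM at PND14 (log2 fold change -0.53 ± 0.20 SE, edgeR adjusted p = 0.31).

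None of the 9 DNA methylation genes was higher in every later pool and 4 were lower, against 14.5% and 17.2% of all genes. The list's median log2 fold change was -0.39. Dnmt1, the maintenance enzyme, measured 181 and 174 CPM at PND7, 165 and 119.9 CPM at PND12, and 211 and 104.2 CPM at PND14 (log2 fold change -0.22 ± 0.25 SE, edgeR adjusted p = 0.674). Dnmt3a, a de novo enzyme, measured 167 and 166 CPM at PND7, 171 and 110.2 CPM at PND12, and 147.1 and 74.1 CPM at PND14 (log2 fold change -0.39 ± 0.27 SE, edgeR adjusted p = 0.464). In each gene the pools overlapped, with 1 replicate 1 pool above PND7.

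Markers of other cells are given for the whole lists. Of 19 tested Sertoli cell markers 1 was higher and 3 lower in every later pool, against 14.5% and 17.2% of all genes. Their median log2 fold change of 0.03 turned to -0.64 without either PND12 replicate 1 or PND14 replicate 1. The 14 interstitial and peritubular markers summed to 149 and 222 CPM at PND7, 516 and 66.1 CPM at PND12, and 165 and 60.5 CPM at PND14, the 9 Leydig cell markers to 70.1, 26.9, 110.9, 34.1, 37.2 and 15.2 CPM in the same order, and the 13 blood, macrophage and endothelial markers to 149, 48.4, 94.9, 18.2, 72.3 and 53.03 CPM. The Sertoli, interstitial and Leydig sums were all highest in PND12 replicate 1, and no list had all members at 0. The 14 genes of the dissociation response summed to between 1872 and 2443 CPM, highest in PND12 replicate 1. Fabp3 and Star, the Leydig cell markers with most UMIs, stood at no more than 19.7 CPM in any pool, and the interstitial collagens Col1a1 and Col1a2 at no more than 94.8 CPM. The part of other cells' RNA in any difference above was not tested.

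Male meiotic prophase silences the X chromosome, and X genes were read apart for this reason. The X-chromosome share of UMIs, as a percentage of autosomal UMIs, was 3.44% and 3.43% at PND7, 3.48% and 1.89% at PND12, and 3.18% and 1.65% at PND14. The replicate 2 pools of both later time-points thus had a much smaller X share than PND7, and the replicate 1 pools were near PND7. Of 764 X genes tested, 198 (25.9%) were lower and 43 (5.63%) higher in every later pool, against 16.97% and 14.9% of 19396 autosomal genes. The median log2 fold change of X genes was -0.33 against 0.06 for autosomal genes, and between -0.68 and -0.19 in the alternatives tried. Esx1, described above, was among the X genes that were higher. For the 31 Y genes tested the median was -0.01.

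Cells within a pool were spread widely. For Stra8, cells of PND7 had a median of 258 and 335 CPM, while those of PND12 had 556 and 159 CPM, and those of PND14 had 319 and 70.6 CPM. The quartiles of the PND14 replicate 2 cells were 27.2 and 331 CPM. For Nanos3 the medians were 120.6 and 107.8 CPM at PND7, 27.2 and 13.8 CPM at PND12, and 13.2 and 2.84 CPM at PND14. The Nanos3 medians of the later pools were thus further below PND7 than the pool sums were, and the upper quartile of PND12 replicate 1, 118.002 CPM, lay near the PND7 medians.

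The Meiob medians, higher in all later pools, were 2.02 and 2.67 CPM at PND7, 71.1 and 68.7 CPM at PND12, and 26.3 and 152 CPM at PND14. Piwil1 had a median of 2.35 and 2.55 CPM at PND7, 0 and 115.01 CPM at PND12, and 3.60 and 62.4 CPM at PND14. In Piwil1 the quartile ranges of the 2 replicates of each later day did not overlap. The upper quartile was 4.99 CPM in PND12 replicate 1 and the lower quartile 35.1 CPM in PND12 replicate 2. The full ranges of these 2 pools did overlap, at 0 to 167 CPM and 0 to 1293 CPM.

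**Figure D5:**
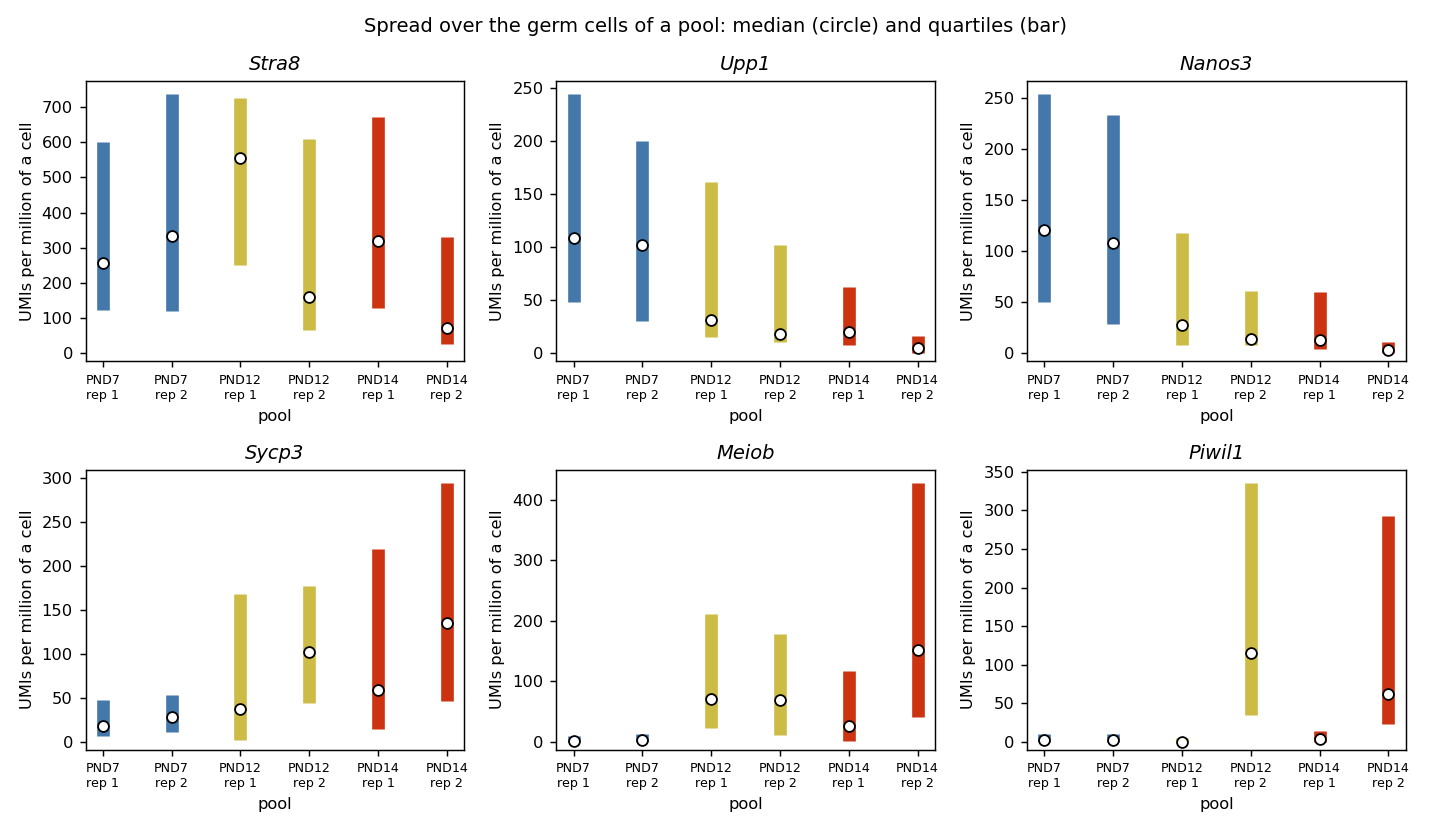
Spread of 6 genes over the germ cells of each pool (x axis), as CPM of a cell (y axis), with the median as a circle and the lower to upper quartile as a bar. Upp1 and Nanos3 medians are lower in all later pools, Sycp3 and Meiob medians higher, and the Piwil1 bar of PND12 replicate 1 ends at 4.99 CPM while that of PND12 replicate 2 starts at 35.1 CPM.

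The share of cells with at least 1 UMI was compared after each cell was thinned to 50000 UMIs, which left out 61 shallower cells. Spo11 was found in 12.5% and 16.6% of cells at PND7, 22.9% and 67.98% at PND12, and 32.9% and 74.9% at PND14. Exact 95% binomial intervals, which cover counting error only, ran from 7.58% to 19.03% in PND7 replicate 1 and from 69.9% to 79.5% in PND14 replicate 2. As a background, 151 cells with Sox9 of at least 100 CPM and Ddx4 under 150 CPM, with a median of 174894 UMIs against 283700 in the germ cells, held Spo11 in 2.65%. Without thinning the germ cell shares were between 30.5% and 90.8%.

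Prdm9 was found in 13.2% and 13.9% of thinned cells at PND7, close to the background of 10.6%, in 50% and 25.8% at PND12, and in 49.7% and 35.2% at PND14. Sycp3 was found in 55.6% and 64.2%, then 60.4% and 88.2%, then 77.3% and 87.2% of cells in the same order, against 22.5% in the background cells. Spermatogonial Gfra1 was found in 29.2% and 23.8% of cells at PND7, 14.6% and 11.8% at PND12, and 12.1% and 7.16% at PND14, against 5.30%. Its share was lower in every later pool although its summed level overlapped. Stra8 and Sycp1 were found in 87.4% and 82.8% of the background cells, so their shares are not read.

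PND14 replicate 1 was sorted by DNA content, since the cell names give 3 of its libraries as 2N (169 germ cells) and 2 libraries 4N (167 germ cells). Cells labelled 4N, which have replicated their DNA, held 214 CPM of Sycp3, 104.2 CPM of Prdm9, 58.5 CPM of Spo11 and 166 CPM of Dmc1. Those labelled 2N held 48.2, 22.4, 6.48 and 55.3 CPM of the same genes. Upp1 went from 139.2 CPM in 2N to 37.7 CPM in 4N, and Clu from 357 to 35.9 CPM. The 2 labels thus differ in meiotic genes and in Sertoli RNA at once, within 1 animal and with no test.

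All PND7 libraries were labelled 2N, no PND12 library carried a label, and of PND14 replicate 2 the 1 library labelled 2N held 238 CPM of Sycp3 and 106.6 CPM of Spo11. Libraries labelled 2N of the same day therefore ranged from 37.9 to 238 CPM of Sycp3. With the cells labelled 4N left out, a choice made after seeing the data, edgeR again called 0 genes, with 1701 under an unadjusted 0.05 against 3144 with them. DNA content label, library, animal and time-point cannot be told apart in these pools.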

How the data were processed

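Testicular cells of wild-type mice at PND7, PND12 and PND14 were measured by a modified STRT-seq. Per the labels, the authors demultiplexed with CASAVA 1.8, used UMI-tools for barcodes and molecular tags, STAR for alignment to mm10, and featureCounts (Subread) for counting. The deposited table holds raw UMI counts of 31053 genes in 13032 cells. Time-point, genotype, replicate and DNA content label were read from the cell names, 17 libraries and 1584 cells were used, and 11448 cells of other libraries or time-points were not used here.

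Cells were filtered and chosen as the report describes, CPM is UMIs over the total UMIs of a cell or pool, and counts were summed per time-point and replicate. Pools were tested with edgeR 4.0.16 (R 4.3.3) by quasi-likelihood with TMM scaling, filterByExpr and a factor of 3 time-points, at an adjusted p (Benjamini-Hochberg) of 0.05 over all genes tested. The standard error was the absolute log2 fold change over the square root of F. DESeq2 1.42.0 and limma 3.58.1 were alternatives, and edgeR's fit of the first comparison was tested on simulated data. With the spread of the pools, it recovered 0 of 200 genes changed 2-fold and 135 of 200 changed 4-fold. At 16-fold it recovered 196 of 200. In the pools themselves Prss50 had a log2 fold change of 4.31, which is more than 16-fold, and did not pass. The log2 fold changes of Rad51ap2 and H2-Ab1 were larger, and neither passed. A gene that did not pass can therefore still differ 2-fold or by much more, and the recovered numbers give no limit for the pools. Why the pools gave fewer calls was not tested. Pools are single mice, so n = 2 per time-point, and their number and UMI totals set the precision. Doublets were not called, beyond the upper limit of 1000000 UMIs. Shares of cells, quartiles and figures were computed with Python 3.11.15.

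The germ cell comparison and the gene lists were chosen with earlier results of these data known. Genes were named by rule as the 12 largest past the threshold in each direction and the 4 largest per list, of which there were none, the 2 members per list with the highest mean CPM that did not pass, and a fixed set of 17. All other genes named were chosen after their values were seen. For 9 symbols of the lists no row was found, and they were left out. Paralogs with near-identical 3′ ends may share reads. A few members of the lists are not reported here by name.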

Additional observations from a re-analysis of the deposited data

How the results depend on the processing

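EdgeR called 0 genes in PND12 and PND14 against PND7 under RLE or no scaling, a stricter expression filter, 2 groups, other limits on Ddx4, Dazl, Sox9, Nr2f2 or cell quality, thinning, and without any 1 pool, where 672 to 5163 genes had an unadjusted p under 0.05. DESeq2 called 2421, 1521 and 1757 genes for the mean of the later days, PND12 and PND14 against PND7, and 34 for PND14 against PND12. Limma called 4, 0, 0 and 0. Without the expression filter edgeR called 39, 13, 22 and 0. Without the cells high in Clu and Defb19 it called 2898, 2078, 1828 and 0, in a set of cells that lacks the later libraries nearest to PND7. In that set PND14 replicate 1 held only cells labelled 4N, against 2N at PND7. The causes of the differences between settings were not tested.

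Replicate numbers did not mark shared animals. Deviations of same-numbered pools correlated at 0.02 for PND7 with PND12, 0.02 for PND7 with PND14 and 0.74 for PND12 with PND14. A fit with the replicate number as a block called 330, 94, 229 and 0 genes.

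The log2 fold change of Stra8 was 0.10 with PND12 alone and lay between -0.22 and 0.10 without any 1 pool, including 0.07 without PND12 replicate 2 and 0.07 without PND14 replicate 2. Of the values of 16 named genes under all alternatives, 388 kept their direction and their side of the threshold, 24 came to pass it, and 4, all of Stra8, changed sign. The medians of the Sertoli, interstitial and Leydig marker lists changed sign under several alternatives, that of the blood list was 0.51 without PND7 replicate 1 and below 0 otherwise, and that of the meiotic entry list was -0.03 with PND12 alone. Of the shares of cells, 62 moved beyond their counting interval without thinning, all upward with depth. Adding PND5, PND6, PND8 and PND10 pools to estimate the spread was planned and not run.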

Other observations

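Some genes outside the lists also stood apart between the later pools and PND7, and all were chosen after their values were seen. Transcripts of the major histocompatibility complex were among them. H2-K1, a class I heavy chain, measured 33.3 and 22.4 CPM at PND7, 229 and 169 CPM at PND12, and 208 and 221 CPM at PND14 (log2 fold change 2.95 ± 0.27 SE, edgeR adjusted p = 0.169). H2-D1, another class I chain, measured 31.03 and 24.7 CPM at PND7, 129.9 and 95.4 CPM at PND12, and 103.1 and 108.1 CPM at PND14 (log2 fold change 2.02 ± 0.25 SE, edgeR adjusted p = 0.171). The class II gene H2-Ab1 measured 1.18 and 1.02 CPM at PND7, 28.05 and 47.7 CPM at PND12, and 30.7 and 35.4 CPM at PND14 (log2 fold change 5.07 ± 0.47 SE, edgeR adjusted p = 0.169), and limma called H2-K1 and H2-Ab1. H2-Aa, which encodes the partner chain of H2-Ab1, was near 0 throughout, at 0.746 and 0.823 CPM at PND7, 0 and 0.057 CPM at PND12, and 0.048 and 0.25 CPM at PND14. Class I genes resemble each other closely, so reads may be shared among them.

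Inca1, an inhibitor of CDK2 with cyclin A1, measured 23.7 and 25.5 CPM at PND7, 134.6 and 115.6 CPM at PND12, and 128.3 and 152 CPM at PND14 (log2 fold change 2.48 ± 0.24 SE, edgeR adjusted p = 0.169). Ly6k, a surface protein that associates with TEX101, measured 24.05 and 19.8 CPM at PND7, 256 and 394 CPM at PND12, and 332 and 617 CPM at PND14 (log2 fold change 4.24 ± 0.45 SE, edgeR adjusted p = 0.171), and Dpep3, another partner of TEX101, measured 37.6 and 42.8 CPM at PND7, 188 and 263 CPM at PND12, and 216 and 327 CPM at PND14 (log2 fold change 2.69 ± 0.34 SE, edgeR adjusted p = 0.171). These were higher in every later pool, as Tex101 was. Among the genes lower in every later pool, Irak1, a kinase of interleukin-1 signalling on the X chromosome, measured 234 and 209 CPM at PND7, 86.1 and 51.9 CPM at PND12, and 56.4 and 46.1 CPM at PND14 (log2 fold change -1.86 ± 0.22 SE, edgeR adjusted p = 0.171). The anchoring protein gene Akap5 measured 129.9 and 136.8 CPM at PND7, 17.8 and 26.2 CPM at PND12, and 53.1 and 40.3 CPM at PND14 (log2 fold change -2.01 ± 0.23 SE, edgeR adjusted p = 0.171).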
